A study of Mus musculus with 8 samples.

Results

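The SLAM receptor cluster is a stretch of mouse chromosome 1 that holds 7 related receptor genes: Cd244, Ly9, Slamf7, Cd48, Slamf1, Cd84 and Slamf6. Its accessible regions were taken as every deposited peak that overlaps chr1:173480000-173890000 in the mm9 build, a window of 410 kb. This gave 68 of 134473 peaks. Membership rests on position only, not on measured values, though the window was chosen with earlier results of these data known. Within the window, Cd48 was taken to lie at about 173612000 to 173636000 and Slamf1 at about 173697300 to 173731300. In the GRCm38.p6 gene table, another build used for neighbour order only, Cd244, Ly9 and Slamf7 lie on the low-coordinate side of Cd48, and Cd84 and Slamf6 lie beyond Slamf1. Peaks were therefore placed in 5 zones by their midpoints: before Cd48, the Cd48 interval, between Cd48 and Slamf1, the Slamf1 interval and after Slamf1. Exons and introns of the mm9 build were not used here, and the edges of both gene intervals are approximate.

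Accessibility was measured by bulk ATAC-seq, in which the Tn5 transposase cuts and tags open DNA, in 2 sorted groups of bone marrow MPP2 cells. The groups were Vwf+Gata1+ MPP2 and Vwf-Gata1+ MPP2, with 4 libraries each and 500 cells per library. All cells came from C57BL/6 mice aged 8 to 12 weeks and shared the LSK (lineage-negative, Sca1-positive, Kit-positive), Flt3-, CD150+ and CD48+ gate, so the groups differed in the sort by Vwf alone. Labels used here do not say how Vwf and Gata1 were detected or whether the replicates were separate animals, so p-values measure the spread between these libraries, which may be technical. Total counts in peaks ran from 4628997 to 7753538 per library, of which 1401 to 2670 fell in the window, and within groups no library pair differed by as little as sampling noise (chi-square per degree of freedom 1.29 to 1.94).

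SLAM receptors are immunoglobulin-family proteins of blood cells. Most bind a copy of themselves on a neighbouring cell, while CD48, which is tethered to the membrane by a lipid anchor, is the ligand of CD244. Those with a cytoplasmic tail signal through small adaptors of the SAP family, best known from T cells and natural killer cells. In the bone marrow CD150, the product of Slamf1, and CD48 are sorting markers: stem cells carry CD150 without CD48, and MPP2, a progenitor biased toward megakaryocytes and red cells, carries both. CD150 and CD48, the SLAM receptors of the gate, are therefore both encoded in the window, and both groups were sorted as positive for them.

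The sequences before the starts of Slamf1 and Cd48 are shown because a peak lies over the approximate start of each. They are the 250 bases upstream of the RefSeq start in the GRCm38.p6 build, plus strand, at chr1:171766882-171767131 for Slamf1 and chr1:171681742-171681991 for Cd48; these positions belong to that build and were not converted to mm9. Capitals mark matches, on either strand, to GATAA (GATA factors), GGAAG (ETS factors), TGTGGT (RUNX factors) and TGANTCA (AP-1).
Slamf1: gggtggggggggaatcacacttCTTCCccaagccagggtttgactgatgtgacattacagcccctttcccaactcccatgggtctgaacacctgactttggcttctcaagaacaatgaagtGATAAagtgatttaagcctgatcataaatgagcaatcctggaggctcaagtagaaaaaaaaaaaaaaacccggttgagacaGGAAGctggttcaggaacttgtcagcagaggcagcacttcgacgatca
Cd48: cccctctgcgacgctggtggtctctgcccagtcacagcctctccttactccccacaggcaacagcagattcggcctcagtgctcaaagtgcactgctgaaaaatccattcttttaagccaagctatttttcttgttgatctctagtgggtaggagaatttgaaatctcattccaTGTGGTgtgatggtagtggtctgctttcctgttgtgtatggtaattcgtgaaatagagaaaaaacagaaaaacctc
The Slamf1 sequence holds 1 match to GATAA, which begins 129 bases before the start, and 2 to GGAAG, 228 and 48 bases before it. The Cd48 sequence holds 1 match to TGTGGT, 76 bases before the start, and none to GATAA or GGAAG. Each also holds 1 match to the E-box pattern CANNTG, not capitalised, which in Cd48 begins 78 bases before the start and overlaps the TGTGGT match. Of 32851 promoters of the same length in the table, 22.6% hold GATAA, 64.1% GGAAG, 14% TGTGGT, 66.2% CANNTG and 6.75% TGANTCA. The table gave a promoter for 6 of the 7 genes, Ly9 being the other. Slamf1 was the 1 gene of these 6 with a GATAA match. TGANTCA had 1 match each in Cd244, Slamf7 and Cd84. A match describes letters in this stretch and does not show that a factor binds there.

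The cluster was dense in accessible regions. Its 68 peaks amounted to 16.6 per 100 kb and covered 8.10% of the window, while all 8984 peaks of chromosome 1 amounted to 4.63 per 100 kb and covered 2.43% of their span. Spacing was uneven, with gaps of 0.049 to 23.9 kb between neighbouring peaks (median 3.83 kb), and the longest gap lay between Cd48 and Slamf1. Peaks were 200 to 1244 bp wide. The zone before Cd48 held 31 peaks, the Cd48 interval 5, the space between the genes 4, the Slamf1 interval 8 and the zone after Slamf1 20. After a filter on low counts, 53 of the 68 could be tested (77.9%), against 72.2% of the whole table.

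Signal in the window was moderate. It is given as CPM, each library's count scaled to a common depth after TMM normalisation. Mean signal over the 8 libraries ran from 1.34 to 19.3 CPM among the 53 tested peaks, with a median of 4.90 CPM, against a median of 4.47 CPM for all 97040 tested peaks. None of the 53 reached the strongest 10% of tested peaks. The 10 strongest members held 40.1% of the window's signal. Per kb of peak, a scale on which peaks of unequal width can be compared, the tested members had a median of 9.19 CPM per kb, close to the 9.13 CPM per kb of all tested peaks.

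**Figure D1:**
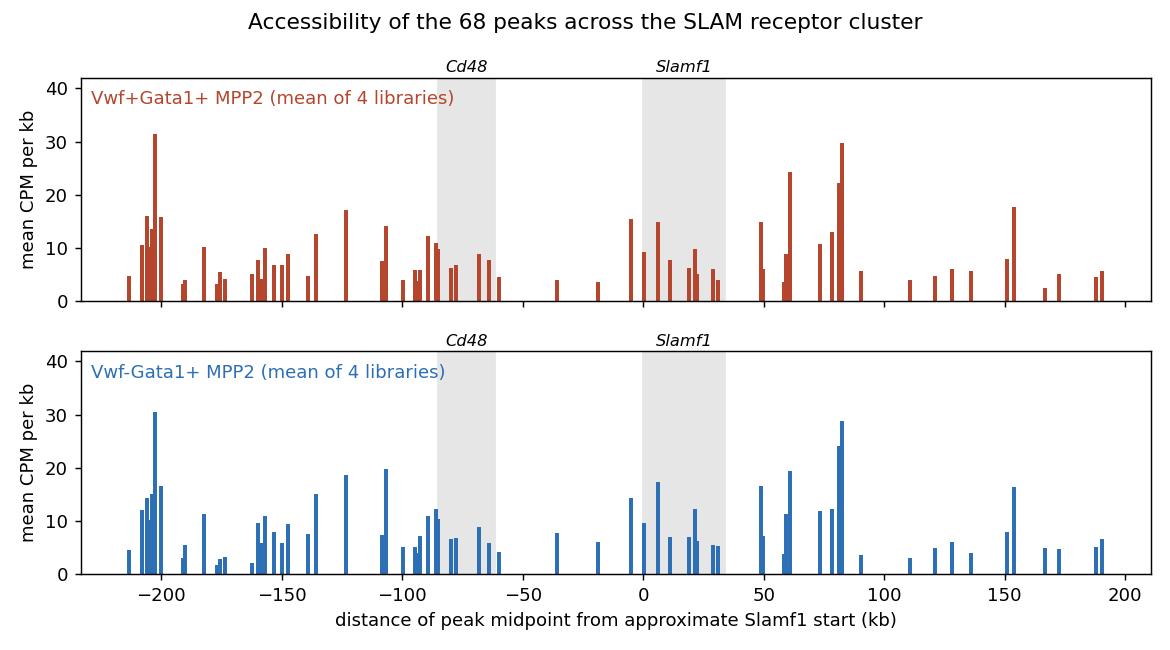
Mean CPM per kb of each of the 68 peaks (vertical axis) against the distance of its midpoint from the approximate Slamf1 start in kb (horizontal axis), with Vwf+Gata1+ MPP2 above and Vwf-Gata1+ MPP2 below; shaded bands are the Cd48 and Slamf1 intervals. The profiles have nearly the same shape, with the tallest bars outside both bands, at -203 and 82.5 kb.

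The highest signal per kb stood outside the gate genes. Before Cd48 the peak at chr1:173494462-173494819 had 30.9 CPM per kb, and after Slamf1 the peak at chr1:173779538-173780028 had 29.2 CPM per kb. They ranked above 92.8% and 91.6% of tested peaks on this scale. Next were chr1:173778263-173778724 with 23.2 CPM per kb and chr1:173757836-173758217 with 21.8 CPM per kb, both in the same zone as the second. The first and the last 2 of these 4 lie outside the naming rule and were chosen after their values were seen. Summed over zones, signal per kb differed little, from 8.37 CPM per kb in the Cd48 interval and 9.92 before Cd48 to 10.1 in the Slamf1 interval, 10.3 between the genes and 11.1 after Slamf1.

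The question put to each peak was whether accessibility differed between Vwf+Gata1+ and Vwf-Gata1+ MPP2. The answer from edgeR's quasi-likelihood test was 0 of the 53 tested members at an adjusted p under 0.05, where 0.0144% of all tested peaks passed, 0.0134% higher in Vwf+Gata1+ cells and 0.00103% lower. DESeq2 and limma-voom with quality weights also called 0 members. At an unadjusted p under 0.05 edgeR found 3 members, all lower in Vwf+Gata1+ cells (5.66%). Of all tested peaks 6.72% fell under that limit, made up of 3.52% of all tested peaks that were higher and 3.2% that were lower. DESeq2, which took in all 68 members, found 1 higher and 2 lower and limma-voom 0 and 4. Without replicate 2 of Vwf-Gata1+ cells edgeR found 1 higher and 1 lower. Shares over all peaks are not given here for these other fits, so their counts have no background to be read against. The groups did not overlap at 1 of the 53 (1.89%), where the share over all tested peaks was 3.88%, 1.81% with Vwf+Gata1+ cells higher and 2.07% with them lower. Pooled over directions, both shares lie below the background. The lower direction alone held 5.66% of members against 3.2% of all tested peaks, a share that rests on 3 peaks and was not tested.

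The test nevertheless bounded the size of a difference at most members. For 47 of the 53 (88.7%) the 95% interval of the fold difference lay within 2-fold in either direction, a share of 85.6% over all tested peaks. The other 6, whose intervals reached past 2-fold, averaged between 1.34 and 1.77 CPM. Fitted log2 fold changes, Vwf+Gata1+ over Vwf-Gata1+, ran from -0.94 to 0.52 and were under 0.25 in size at 40 members. They were below 0 at 34 of the 53 (64.2%), where 49.3% of all tested peaks were, with a median of -0.11 against 0.00389 over all tested peaks. Without the filter the median over all 68 members was -0.06, and 38 of 68 were below 0. The share of all peaks below 0 in that fit is not given here. Without replicate 1 or replicate 2 of Vwf+Gata1+ cells, or replicate 1 of Vwf-Gata1+ cells, the members' median was -0.06 as well. It was -0.13 without replicate 4 of Vwf+Gata1+ cells or without replicate 3 of Vwf-Gata1+ cells. Leaving out any other library gave a median between these. In bulk libraries a lower signal in every cell and fewer cells with the site open cannot be told apart.

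**Figure D2:**
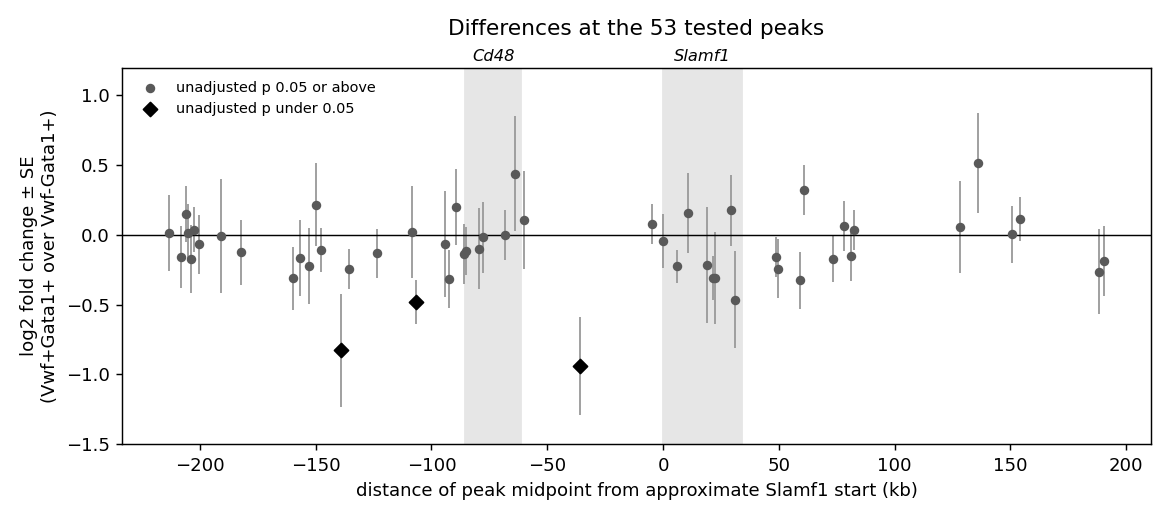
Log2 fold change ± SE, Vwf+Gata1+ over Vwf-Gata1+ MPP2 (vertical axis), of the 53 tested peaks against the distance of their midpoints from the approximate Slamf1 start in kb. Diamonds mark the 3 peaks at an unadjusted p under 0.05, all below 0, and none of the 53 passed the adjusted threshold.

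Slamf1 encodes CD150, the receptor that the gate required. The peak over its approximate start, chr1:173697110-173697794, had 6.19, 5.25, 6.19 and 7.62 CPM in replicates 1 to 4 of Vwf+Gata1+ cells and 8.10, 5.84, 6.83 and 5.40 CPM in replicates 1 to 4 of Vwf-Gata1+ cells. The groups overlapped, and the lowest and the highest of the 8 libraries were replicate 2 of Vwf+Gata1+ and replicate 1 of Vwf-Gata1+ cells. The mean was 6.31 ± 0.976 CPM in the Vwf+Gata1+ libraries and 6.54 ± 1.2 CPM in the Vwf-Gata1+ libraries (n = 4 each, SD). The fitted log2 fold change was -0.04 ± 0.20 (edgeR, SE; adjusted p = 0.987). Its 95% interval, -0.44 to 0.35, allows at most a 1.36-fold difference in either direction.

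The strongest peak of the window lay 6.16 kb inside Slamf1, at chr1:173702857-173704058, and was 1202 bp wide. It had 18.2, 16.7, 19.0 and 17.4 CPM in Vwf+Gata1+ cells and 19.2, 24.1, 18.5 and 21.2 CPM in Vwf-Gata1+ cells. The groups overlapped in a narrow range, since replicate 3 of Vwf-Gata1+ lay below replicate 3 of Vwf+Gata1+ cells, while the other 3 Vwf-Gata1+ libraries lay above all Vwf+Gata1+ libraries. The mean was 17.8 ± 1.0 CPM in the Vwf+Gata1+ libraries and 20.8 ± 2.51 CPM in the Vwf-Gata1+ libraries (n = 4 each, SD). The fitted log2 fold change was -0.22 ± 0.12 (edgeR, SE; adjusted p = 0.77), with a 95% interval of -0.47 to 0.02. Per kb this site had 16.0 CPM and the start peak 9.38 CPM, so the start was not the most open part of the gene.

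Just before Slamf1, 4.87 kb from its approximate start, the peak at chr1:173691865-173692987 was the second strongest of the window. It had 16.2, 14.8, 22.7 and 15.2 CPM in Vwf+Gata1+ cells and 17.3, 11.7, 17.9 and 17.5 CPM in Vwf-Gata1+ cells. The highest and the lowest value were single libraries of opposite groups, replicate 3 of Vwf+Gata1+ and replicate 2 of Vwf-Gata1+ cells, and the other 6 libraries lay between 14.8 and 17.9 CPM. Its log2 fold change was 0.08 ± 0.15 (edgeR, SE; adjusted p = 0.964). Without replicate 3 of Vwf+Gata1+ cells it was -0.06, and without replicate 2 of Vwf-Gata1+ cells -0.05, so its sign rested on each of these libraries.

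Summed over the 8 peaks of the Slamf1 interval, the total came to 44.8, 45.0, 41.9 and 45.6 CPM in Vwf+Gata1+ cells and 51.5, 54.0, 49.7 and 46.3 CPM in Vwf-Gata1+ cells. Every Vwf+Gata1+ library lay below every Vwf-Gata1+ library, by a margin of less than 1 CPM at the closest pair. The mean was 44.3 ± 1.63 CPM in the Vwf+Gata1+ libraries and 50.4 ± 3.24 CPM in the Vwf-Gata1+ libraries (n = 4 each, SD), a ratio of 0.880. For comparison, windows of the same length, 34 kb, were laid on a fixed grid, and those that held any peak were kept. The groups' sums did not overlap in 4.27% of these 39991 windows. Vwf+Gata1+ libraries were the lower ones in 2.51% of them and in 1.33% of the 7521 windows with at least this signal. For those 7521 windows the share in either direction is not given here. The groups also stayed apart with total count and with RLE scaling. Without the strongest peak they overlapped, at 22.9 to 28.3 CPM in Vwf+Gata1+ cells and 25.1 to 32.3 CPM in Vwf-Gata1+ cells. They also overlapped without the 1 peak that averaged under 1.5 CPM, at 40.6 to 45.3 CPM in Vwf+Gata1+ cells and 44.8 to 52.3 CPM in Vwf-Gata1+ cells. The sum is a description of the libraries and was not tested.

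The other Slamf1 peaks were weaker. Of the 8, 6 had fitted log2 fold changes below 0 and 2 above, from -0.46 to 0.18. The second strongest, chr1:173718501-173719458, chosen after its values were seen, had 9.75, 10.1, 7.79 and 9.78 CPM in Vwf+Gata1+ cells and 11.1, 12.6, 13.5 and 9.92 CPM in Vwf-Gata1+ cells. Only replicate 4 of Vwf-Gata1+ and replicate 2 of Vwf+Gata1+ cells kept the groups from separating (edgeR log2 fold change -0.31 ± 0.16, SE; adjusted p = 0.757).

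Cd48 encodes the ligand of CD244 and was also required by the gate. The peak over its approximate start, chr1:173611665-173612537, was also the strongest of its interval and had 8.69, 8.44, 10.3 and 6.76 CPM in Vwf+Gata1+ cells and 10.5, 9.07, 6.83 and 9.78 CPM in Vwf-Gata1+ cells. The ranges nearly coincided. The mean was 8.55 ± 1.46 CPM in the Vwf+Gata1+ libraries and 9.03 ± 1.58 CPM in the Vwf-Gata1+ libraries (n = 4 each, SD). The difference on the log2 scale was -0.12 ± 0.17 (edgeR, SE; adjusted p = 0.952), with a 95% interval of -0.47 to 0.24. The neighbouring peak, 0.115 kb further out at chr1:173611107-173611549, had 5.53, 4.32, 3.90 and 5.61 CPM in Vwf+Gata1+ cells and 6.14, 6.61, 4.29 and 4.52 CPM in Vwf-Gata1+ cells, and its groups overlapped as well (edgeR log2 fold change -0.14 ± 0.21, SE; adjusted p = 0.954).

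The 5 peaks of the Cd48 interval summed to 25.4, 22.7, 24.5 and 22 CPM in Vwf+Gata1+ cells and 28.1, 24.3, 18.3 and 24.7 CPM in Vwf-Gata1+ cells. Replicates 1 and 3 of Vwf-Gata1+ cells were the highest and the lowest of all 8, so that this group enclosed the other. The mean was 23.7 ± 1.58 CPM in the Vwf+Gata1+ libraries and 23.8 ± 4.06 CPM in the Vwf-Gata1+ libraries (n = 4 each, SD). The ratio of the Slamf1 sum to the Cd48 sum was 1.76, 1.98, 1.71 and 2.07 in Vwf+Gata1+ cells and 1.83, 2.22, 2.71 and 1.88 in Vwf-Gata1+ cells, and these ranges overlapped.

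**Figure D3:**
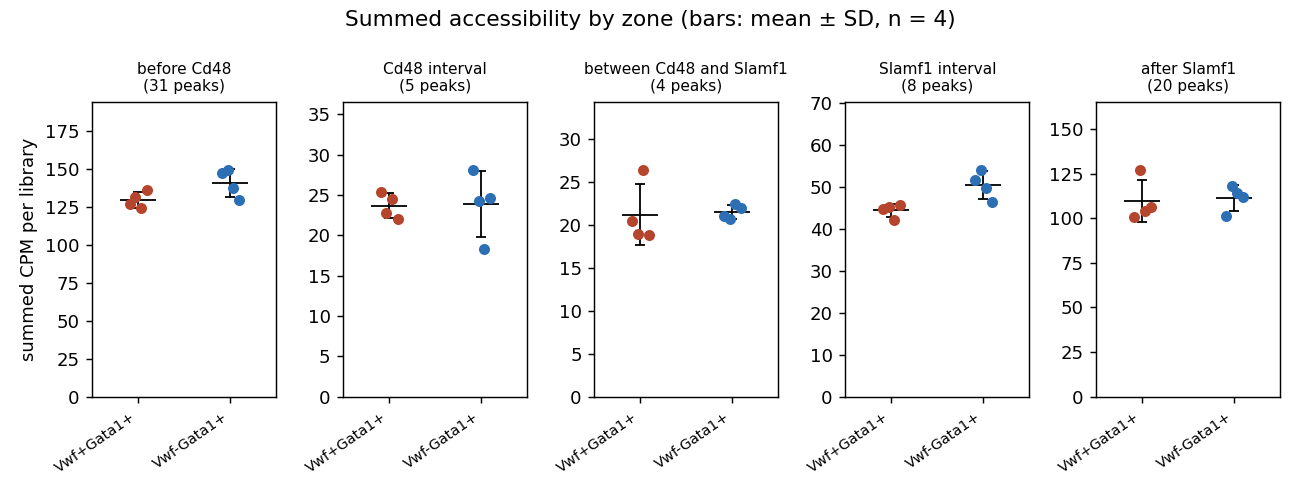
Summed CPM of the peaks of each zone in each of the 8 libraries (points; bars are mean ± SD, n = 4), with Vwf+Gata1+ MPP2 left of Vwf-Gata1+ MPP2 in every panel and vertical axes that start at 0 but differ in height. Of the 5 zones only the Slamf1 interval has its groups apart, at 41.9 to 45.6 CPM in Vwf+Gata1+ and 46.3 to 54.0 CPM in Vwf-Gata1+ cells.

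Between the gate genes lay the single tested member whose groups did not overlap, a weak site at chr1:173661395-173661698. It had 1.19, 1.5, 0.917 and 1.15 CPM in Vwf+Gata1+ cells and 1.57, 3.08, 2.73 and 2.04 CPM in Vwf-Gata1+ cells, which are 4 to 9 counts per Vwf+Gata1+ library and 12 to 20 per Vwf-Gata1+ library. Every Vwf+Gata1+ library was lower, though replicate 2 of Vwf+Gata1+ and replicate 1 of Vwf-Gata1+ cells nearly touched. The mean was 1.19 ± 0.24 CPM in the Vwf+Gata1+ libraries and 2.35 ± 0.677 CPM in the Vwf-Gata1+ libraries (n = 4 each, SD). The log2 fold change of -0.94 ± 0.35 (SE) did not pass (edgeR unadjusted p = 0.0108, adjusted p = 0.567). Its 95% interval, -1.65 to -0.23, is wide, and its counts are low.

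The zone before Cd48 neighbours Slamf7, a self-binding receptor of natural killer and plasma cells, Ly9, also a self-binding receptor, and Cd244, the receptor of CD48. Its strongest peak, chr1:173590379-173591111, lay 21.3 kb before the approximate Cd48 start and had the smallest p of all members. It had 9.75, 13.5, 6.88 and 11.2 CPM in Vwf+Gata1+ cells and 14.6, 17.2, 12.7 and 13.6 CPM in Vwf-Gata1+ cells. Replicate 2 of Vwf+Gata1+ cells lay above replicate 3 of Vwf-Gata1+ cells and the other 3 Vwf+Gata1+ libraries lay below the whole other group. The mean was 10.3 ± 2.78 CPM in the Vwf+Gata1+ libraries and 14.5 ± 1.97 CPM in the Vwf-Gata1+ libraries (n = 4 each, SD). On the log2 scale the difference was -0.48 ± 0.16 (edgeR, SE; unadjusted p = 0.00474, adjusted p = 0.465), which ranked 985 by p among the 97040 tested peaks. In an alternative edgeR fit that blocked libraries by replicate number, its adjusted p was 0.076, which also did not pass. The labels do not state such a pairing.

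The third member at an unadjusted p under 0.05 was a weak site of the same zone, chr1:173558019-173558271. It had 1.05, 0.563, 2.52 and 0.575 CPM in Vwf+Gata1+ cells and 2.48, 1.85, 1.76 and 1.61 CPM in Vwf-Gata1+ cells. Replicate 3 of Vwf+Gata1+ cells was the highest of all 8 libraries and the other 3 of its group were the lowest, with 3 to 11 counts per library in the group. Its log2 fold change was -0.83 ± 0.40 (edgeR, SE; unadjusted p = 0.0476, adjusted p = 0.739). Over the zone as a whole, 16 of 23 tested peaks had log2 fold changes below 0, and the summed signal was 124 to 136 CPM in Vwf+Gata1+ cells and 129 to 149 CPM in Vwf-Gata1+ cells, with overlap.

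**Figure D4:**
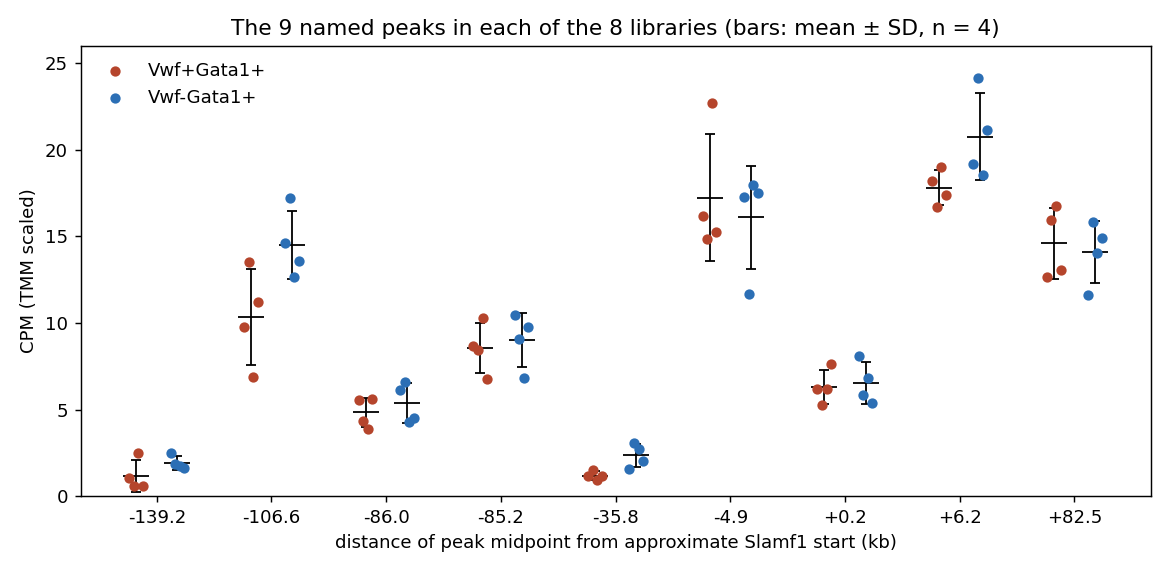
CPM of the 9 peaks chosen by the naming rule in each of the 8 libraries (points; bars are mean ± SD, n = 4), ordered by the distance of their midpoints from the approximate Slamf1 start in kb, with Vwf+Gata1+ MPP2 left of Vwf-Gata1+ MPP2. Of the 9 peaks only the weak one at -35.8 kb has its groups apart, and replicate 2 of Vwf-Gata1+ cells stands low at -4.87 kb.

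The zone after Slamf1 neighbours Cd84 and Slamf6, both self-binding receptors that signal through SAP adaptors. Its strongest peak, chr1:173779538-173780028, had 12.6, 16.0, 16.7 and 13.1 CPM in Vwf+Gata1+ cells and 11.6, 15.8, 14 and 14.9 CPM in Vwf-Gata1+ cells. The groups overlapped almost entirely, with a log2 fold change of 0.04 ± 0.14 (edgeR, SE; adjusted p = 0.985). Its 95% interval gave the tightest bound of all 53 members, at most 1.25-fold in either direction. Another strong peak of the zone, chr1:173850946-173851784, chosen after its values were seen, ran from 10.1 to 21.0 CPM in Vwf+Gata1+ cells and from 13.3 to 14.3 CPM in Vwf-Gata1+ cells, so it varied within the first group alone. Of the 14 tested peaks of the zone, 7 were above 0 and 7 below, and the zone summed to 101 to 127 CPM in Vwf+Gata1+ cells and 101 to 118 CPM in Vwf-Gata1+ cells.

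The 15 members that failed the filter averaged 0.501 to 1.56 CPM and had at most 17 counts in a library. Their mean was higher in Vwf+Gata1+ cells at 8 of the 15. At 2 of the 15 (13.3%) the groups did not overlap, in opposite directions, where the share over all 37433 peaks that failed the filter was 3.38%. The site at chr1:173534931-173535165 had 5 to 9 counts per library in Vwf+Gata1+ cells (0.790 to 1.83 CPM) and 2 to 5 in Vwf-Gata1+ cells (0.307 to 0.653 CPM). The site at chr1:173863977-173864265 had 3 to 5 counts in Vwf+Gata1+ cells (0.575 to 0.938 CPM) and 6 to 14 in Vwf-Gata1+ cells (1.02 to 1.83 CPM). Both were chosen after their values were seen, and neither was tested.

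Over all 68 peaks the window summed to 318, 345, 321 and 329 CPM in Vwf+Gata1+ cells and 349, 366, 342 and 334 CPM in Vwf-Gata1+ cells. Replicate 2 of Vwf+Gata1+ cells lay above replicates 3 and 4 of Vwf-Gata1+ cells, while the other 3 Vwf+Gata1+ libraries lay below all 4 of Vwf-Gata1+ cells. The mean was 328 ± 12.1 CPM in the Vwf+Gata1+ libraries and 348 ± 13.7 CPM in the Vwf-Gata1+ libraries (n = 4 each, SD), a ratio of 0.943. Replicate 3 of Vwf+Gata1+ cells, the library with the fewest counts, was the lowest of the 8 at 18 of the 53 tested members and the highest at 8. How often this library was lowest or highest over all tested peaks is not given here, so these counts show nothing particular to the window.

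Peaks elsewhere that varied most like the gate genes over the 8 libraries were sought among 44556 tested peaks of at least 5 CPM. For the Cd48 start peak they were chr5:67388106-67389018, chr11:100813085-100813877 and chr13:44054344-44055204, with Pearson r of 0.973, 0.961 and 0.954 over 8 libraries. For the strongest Slamf1 peak they were chr6:120146899-120147218, chr8:70771594-70772309 and chr7:89008074-89008445, with r of 0.974, 0.966 and 0.962. With so many candidates and 8 points, of which both depth and group are shared, these values are a description only.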

How the data were processed

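The authors deposited 1 table of raw counts for 134473 peaks in 8 libraries. The build is mm9, per the submitters' processing notes, which name MACS2, Picard, Bowtie2, SAMtools, FastQC and Trim Galore without roles. What a count stands for (reads or fragments), any Tn5 shift, duplicate handling and peak merging are not given in the sources used here. Starts were read as 1-based.

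All tests were fitted on the whole table: filterByExpr (minimum count 10, minimum total 15), TMM, edgeR's robust quasi-likelihood test and Benjamini-Hochberg adjustment over 97040 peaks, threshold 0.05. Standard errors (SE) are the absolute log2 fold change divided by the root of the F statistic, and 95% intervals use the test's t distribution. The code was tested on simulated data. Alternatives were a replicate block, RLE, total count, loess offsets, no filter, a minimum of 1 CPM in 4 libraries, DESeq2, limma-voom, other thresholds, membership by midpoint and each library left out.

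Named peaks were those within 1 kb of the approximate Cd48 or Slamf1 start, the strongest of each zone, and those at an unadjusted p under 0.05 or without overlap. Members, lists and rules were chosen with earlier results of these data known. The sums over other windows and without single peaks were chosen after seeing the data. Peaks were not assigned to exons, introns or untranslated regions, and genes of the SLAM signalling pathway outside the window and the gate genes Kit, Ly6a and Flt3 were not analysed here, since no annotation of the mm9 build was used. Promoter sequences are from RefSeq (GRCm38.p6). Software was Python 3.11.15, matplotlib 3.10.9, R 4.3.3, DESeq2 1.42.0, limma 3.58.1 and edgeR 4.0.16.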

Additional observations from a re-analysis of the deposited data

Results flagged for a closer look

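At the peak just before Slamf1, chr1:173691865-173692987, replicate 2 of Vwf-Gata1+ cells stood far from the rest of its group, with 11.7 CPM where the other 3 libraries had 17.3 to 17.9 CPM. The gap took up 0.89 of the group's range, above the critical value of 0.829 for 4 samples. This was the 1 value marked among 30 groups of 4 checked, and chance marks about 1 in 20. The library was not low across the window, where it had the highest summed signal of all 8 (366 CPM).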

How the results depend on the processing

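No member was called at an adjusted p under 0.05 in any of the 16 other fits. In the main fit no member was called at 0.01 or 0.1 either. Membership by midpoint, which kept the same number of 68 peaks, also gave no call. Genome-wide calls, 13 higher in Vwf+Gata1+ cells and 1 lower, moved more: 21 and 6 with total count scaling, 26 and 5 with loess offsets, 1 and 0 with limma-voom, 0 lower with DESeq2, 0 and 0 at 0.01 and 48 and 12 at 0.1. Leaving out 1 library gave 3 to 66 higher and 0 to 10 lower, both most without replicate 1 of Vwf+Gata1+ cells. The members at an unadjusted p under 0.05, 0 higher and 3 lower, became 5 lower with total count scaling. The higher ones became 1 with the CPM minimum, 2 with no filter and 1 with DESeq2. Without 1 library they were 0 to 1 higher and 1 to 4 lower. The shares over all peaks in these fits are not given here, so these counts show nothing particular to the members. The median log2 fold change of members, -0.108, was -0.0556 with no filter and -0.0563 with DESeq2, where all 68 members entered, and -0.131 to -0.0621 without 1 library. The Slamf1 sum kept its direction in each setting run, with log2 ratios of -0.223 to -0.149 without 1 library, while the Cd48 sum ran from -0.118 to 0.0771 and so had no stable sign. Of 144 values of the 9 named peaks in other fits 9 changed sign, all at 3 peaks with log2 values under 0.1: the Slamf1 start peak (0.0289 with limma-voom, -0.156 to 0.0932 without 1 library), the peak before Slamf1 (-0.0556 to 0.138 without 1 library) and the strongest peak after Slamf1 (-0.0065 with limma-voom, -0.0541 to 0.104 without 1 library). Except where stated, the cause was not tested.

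The replicate block gave 375 higher and 136 lower peaks genome-wide. Under it 0 members were called (edgeR, lowest adjusted p = 0.076, at chr1:173590379-173591111). At an unadjusted p under 0.05, 1 member was higher and 5 were lower. The share of all tested peaks under that limit with the block is not given here, so these counts show nothing particular to the members. The labels do not explain a shared number. Same-numbered libraries deviated together with correlations of 0.301 (replicate 1), 0.163 (replicate 2), 0.074 (replicate 3) and 0.0103 (replicate 4). These values do not decide whether same-numbered libraries were paired. Because no label states a pairing, the block was kept as an alternative and not used in the main fit. The 6 members whose intervals exceed 2-fold all lie under 2 CPM. Other tested members under 2 CPM stayed within 2-fold, such as chr1:173506109-173506579 with 1.48 CPM and at most 1.78-fold. The part of depth in this was not tested.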
